A study of Homo sapiens with 9 samples.

Results

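The 10 genes described here encode factors that form the 3′ end of histone mRNA or organise the place where it is made. They were taken by name from the deposited count table, in which all 10 occur among 70116 gene identifiers. They are SLBP, NPAT, CASP8AP2, LSM10, LSM11, ZNF473, ERI1, CPSF2, CPSF3 and SYMPK. RNA was measured in U2OS, an established human osteosarcoma line, in 3 groups of 3 libraries. The first group was wild-type (WT) cells on vehicle and the second was WT cells on Palbociclib (PD), an inhibitor of the kinases CDK4 and CDK6. The third was PERK KO cells, made by CRISPR/Cas9 editing of the gene for the stress kinase PERK, also on Palbociclib. Drug was given for 4 days, per the series' design text. Whether the knockout line is 1 clone is not given in the sources used here, and knockout cells on vehicle were not analysed here. The effect of the drug was therefore measured in WT cells, and the effect of the genotype on the drug.

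Histone mRNAs of dividing cells differ from other mRNAs in that they end in a short hairpin and not in a poly(A) tail. SLBP binds that hairpin, the U7 small nuclear ribonucleoprotein pairs with the RNA downstream of it, and the nuclease CPSF3 cuts between them. These mRNAs are needed mainly in S phase, when new DNA is packed into chromatin, and NPAT, phosphorylated by cyclin E and CDK2, starts their transcription in the histone locus body. Palbociclib holds cells before S phase through the retinoblastoma protein.

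The hairpin that SLBP binds is shown first because the other factors act next to it. It was searched as a run of 16 bases with a perfect stem of 6 pairs and a loop of 4 bases that opens with TT, where the stem opens with GG followed by 3 pyrimidines, in the GENCODE 29 transcripts of histone genes (GRCh38, transcript strand). Capitals mark the paired stem. The 3 examples stand for types found in 15, 5 and 4 replication-dependent histone genes, in that order.
H2BC15: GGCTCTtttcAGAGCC
H4C8: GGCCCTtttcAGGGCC
H2BC4: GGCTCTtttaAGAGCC
Of 64 replication-dependent histone genes with a transcript in that release, 27 held such a run. That count does not show that the other genes lack the hairpin. The search asked for a perfect stem with set letters and could not see bases beyond the annotated transcript end. The joined exons of H1-2 and H2BC12, for example, span only 642 and 381 bases, and neither gene had a match. Of 11 genes for replacement and variant histones, most of which make ordinary tailed mRNA, 1 had a match, namely H2AX.

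The U7 RNA, which LSM10 and LSM11 help to coat, is encoded by RNU7-1 (chromosome 12, 6943816 to 6943878 on GRCh38, plus strand, a small nuclear RNA gene). Its 63 bases are given as DNA letters, with the site for the Sm ring (bases 21 to 31) in capitals.
RNU7-1: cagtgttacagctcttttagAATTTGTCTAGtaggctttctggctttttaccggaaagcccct
RNU7-1 was at 0 counts in all 9 libraries, which were made from RNA captured on poly-T beads. U7 RNA has no poly(A) tail.

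Total counts per library ran from 33674039 to 42577874, and 19408 genes passed a filter on low counts. Among the 10 factors 9 passed, and CASP8AP2 did not. Levels are given as CPM, the reads of a gene per 1e+06 reads of its library, after scaling by TMM factors, and differences as log2 fold changes with their standard error (SE). The test was edgeR's quasi-likelihood test, and calls rest on an adjusted p (Benjamini-Hochberg, over all genes tested) under 0.05. EIF2AK3, the gene for PERK, stood at 31.7, 34.8 and 32.8 CPM in WT vehicle libraries, at 35.7, 36.8 and 31.8 in WT palbociclib libraries and at 19.7, 18.7 and 17.8 in knockout libraries (knockout against WT on the drug -0.89 ± 0.068, edgeR adjusted p = 5.98e-09). Its mRNA was thus lower in every library labelled knockout, but not absent. The mesenchymal and osteosarcoma markers all passed the filter (8 of 8). Their sum was 6150 to 6680 CPM with vehicle, 9460 to 10800 with drug in WT cells and 9390 to 11500 in the knockout. With the drug in WT cells 7 of 8 rose, against 21.3% of all tested genes. Haematopoietic markers summed to 0.38 to 0.895 CPM (1 of 7 tested, with CD3E and HBB at 0 in every library), and endothelial markers to 6.43 to 8.0. Epithelial markers summed to 33.0 to 34.9 CPM with vehicle, 32.4 to 33.2 with drug and 21.0 to 23.0 in the knockout. Most of that sum was CLDN4 (23.0 ± 1.4, 21.1 ± 0.49 and 13.8 ± 0.5 CPM). Of 6 tested, 2 rose with the drug (1 with DESeq2, or without vehicle library 2 or 3 or any 1 WT palbociclib library), against 21.3% of all tested genes. CDH1 was among these 2 and went from 1.62 ± 0.074 to 3.63 ± 0.36 CPM. The part of these shifts in the results below was not tested. The sets of the labels are not said to be separate cultures, so p-values measure only the spread between these libraries. Bulk RNA cannot tell fewer cells of a kind, such as fewer cells in S phase, from less RNA per cell.

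Levels were compared between factors per kilobase of annotated exon (RPKM, from the TMM-scaled CPM and the joined exons of all transcripts in GENCODE 29). In WT vehicle cells SLBP was highest at 33.0 ± 0.75 RPKM (mean ± SD, n = 3 here and below), followed by CPSF3 at 23.7 ± 1.7, LSM10 at 18.5 ± 0.37 and SYMPK at 14.6 ± 0.52. NPAT (6.16 ± 0.35) and CPSF2 (5.84 ± 0.095) followed, and their ranges overlapped. ZNF473 stood at 4.56 ± 0.07, LSM11 at 1.78 ± 0.12 and ERI1 at 0.643 ± 0.056. Apart from NPAT and CPSF2, neighbours in this order did not overlap between libraries. The U7 partners LSM10 and LSM11, which sit together in 1 ring, thus differed widely in mRNA level per length. The joined exon length (1496 bases for LSM10, 6584 for LSM11) includes exons that these cells may not use, so the order of levels carries that uncertainty.

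The first comparison asked how the factors changed when WT cells were given the CDK4/6 inhibitor. SLBP, the hairpin binding protein, fell most, to 64.6% of its vehicle level. NPAT, ZNF473, CPSF2 and CPSF3 fell by smaller amounts, and no factor rose. LSM10, LSM11, ERI1 and SYMPK did not pass the test. In counts, 5 of 9 tested factors were called lower and 0 higher, with a median log2 fold change of -0.18, against 22.3% of all tested genes called lower, 21.3% called higher and a median of -0.02. DESeq2 and limma-voom also called 0 factors higher, and 0 were higher at an unadjusted p under 0.05.

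SLBP (ENSG00000163950.13, chromosome 4, 1692800 to 1712555 on GRCh38, minus strand, protein coding) stood at 65.4, 67.0 and 68.4 CPM in WT vehicle libraries. In WT palbociclib libraries it stood at 42.6, 44.0 and 43.1 CPM. Every treated library lay below every vehicle library, and the gap between the groups was many times the spread within them. The log2 fold change was -0.63 ± 0.049 SE (95% interval -0.73 to -0.53, edgeR adjusted p = 4.17e-09).

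NPAT (ENSG00000149308.17, chromosome 11, 108157215 to 108222642, minus strand), the activator of histone gene transcription, stood at 43.5, 47.0 and 48.7 CPM with vehicle and 37.4, 40.7 and 38.5 with drug. The groups did not overlap, and the log2 fold change was -0.26 ± 0.06 (edgeR adjusted p = 0.00176). NPAT shares its promoter region with ATM, the DNA damage kinase, whose start lies 158 bases away on the other strand. ATM moved the other way, from 80.0 ± 5.9 to 91.6 ± 4.0 CPM (0.20 ± 0.058, edgeR adjusted p = 0.0102). The gene bodies overlap at their starts. Without a known strand setting, reads of the shared stretch cannot be told apart.

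ZNF473 (ENSG00000142528.16, chromosome 19, 50025714 to 50053414, plus strand), a zinc finger protein that binds the U7 particle, stood at 31.1, 31.3 and 32.0 CPM with vehicle and at 25.9, 25.9 and 26.1 with drug. Its groups did not overlap and were tight (log2 fold change -0.28 ± 0.056, edgeR adjusted p = 0.000487). VRK3, a kinase gene whose start lies 232 bases away on the other strand and overlaps it, stood at 32.4 ± 1.3 and 33.9 ± 0.77 CPM (0.07 ± 0.059, edgeR adjusted p = 0.394).

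The cleavage factors that histone processing shares with ordinary polyadenylation were CPSF2, CPSF3 and the scaffold SYMPK. CPSF2 (ENSG00000165934.13, chromosome 14, 92121937 to 92172145, plus strand), the inactive partner of the nuclease, stood at 78.1, 80.7 and 79.5 CPM with vehicle and 71.6, 67.2 and 62.6 with drug (-0.24 ± 0.052, edgeR adjusted p = 0.000798). CPSF3 (ENSG00000119203.14, chromosome 2, 9423568 to 9473101, plus strand), the nuclease, stood at 82.2, 90.9 and 95.2 CPM with vehicle and 77.5, 79.3 and 80.6 with drug. Neither gene overlapped between groups, but for CPSF3 the lowest vehicle library came close to the treated ones. The CPSF3 change was -0.18 ± 0.053 (edgeR adjusted p = 0.0102), and it missed the threshold without WT vehicle library 3 (-0.13, edgeR adjusted p = 0.0577). SYMPK (ENSG00000125755.19, chromosome 19, 45815410 to 45863290, minus strand) stood at 161, 154 and 150 CPM with vehicle and 151, 144 and 144 with drug, so the groups overlapped. Its change was -0.08, with a 95% interval from -0.18 to 0.01 (edgeR adjusted p = 0.149).

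The starts of all 3 cleavage factor genes lie close to a gene on the other strand. CPSF3 starts 21 bases from ITGB1BP1, an integrin binding protein gene, which fell as well, from 103 ± 4.1 to 86.6 ± 2.7 CPM (-0.25 ± 0.051, edgeR adjusted p = 0.000533). CPSF2 starts 20 bases from NDUFB1, a respiratory complex I subunit gene, which stood at 22.9 ± 2.6 and 23.4 ± 1.5 CPM (0.03 ± 0.08, edgeR adjusted p = 0.779). SYMPK starts 699 bases from FOXA3, which was near 0 (0.418 ± 0.041 and 0.278 ± 0.11 CPM).

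The Sm-like proteins LSM10 and LSM11, which replace a pair of spliceosomal Sm proteins in the U7 ring, overlapped between vehicle and drug. LSM10 (ENSG00000181817.6, chromosome 1, 36391238 to 36397892, minus strand) stood at 27.5, 27.4 and 28.4 CPM and then at 25.2, 27.0 and 29.8 (log2 fold change -0.02, 95% interval -0.15 to 0.12). LSM11 (ENSG00000155858.6, chromosome 5, 157743695 to 157760709, plus strand) stood at 11, 12.6 and 11.7 CPM and then at 12.1, 12.2 and 10.6 (-0.02, 95% interval -0.19 to 0.16). Neither passed the test. ERI1 (ENSG00000104626.15, chromosome 8, 9002147 to 9116746, plus strand), an exonuclease that trims the histone mRNA end, was the least abundant tested factor at 3.97, 3.83 and 4.51 CPM with vehicle and 3.95, 3.83 and 3.84 with drug. Its interval was the widest of the 9 (-0.34 to 0.17).

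**Figure D1:**
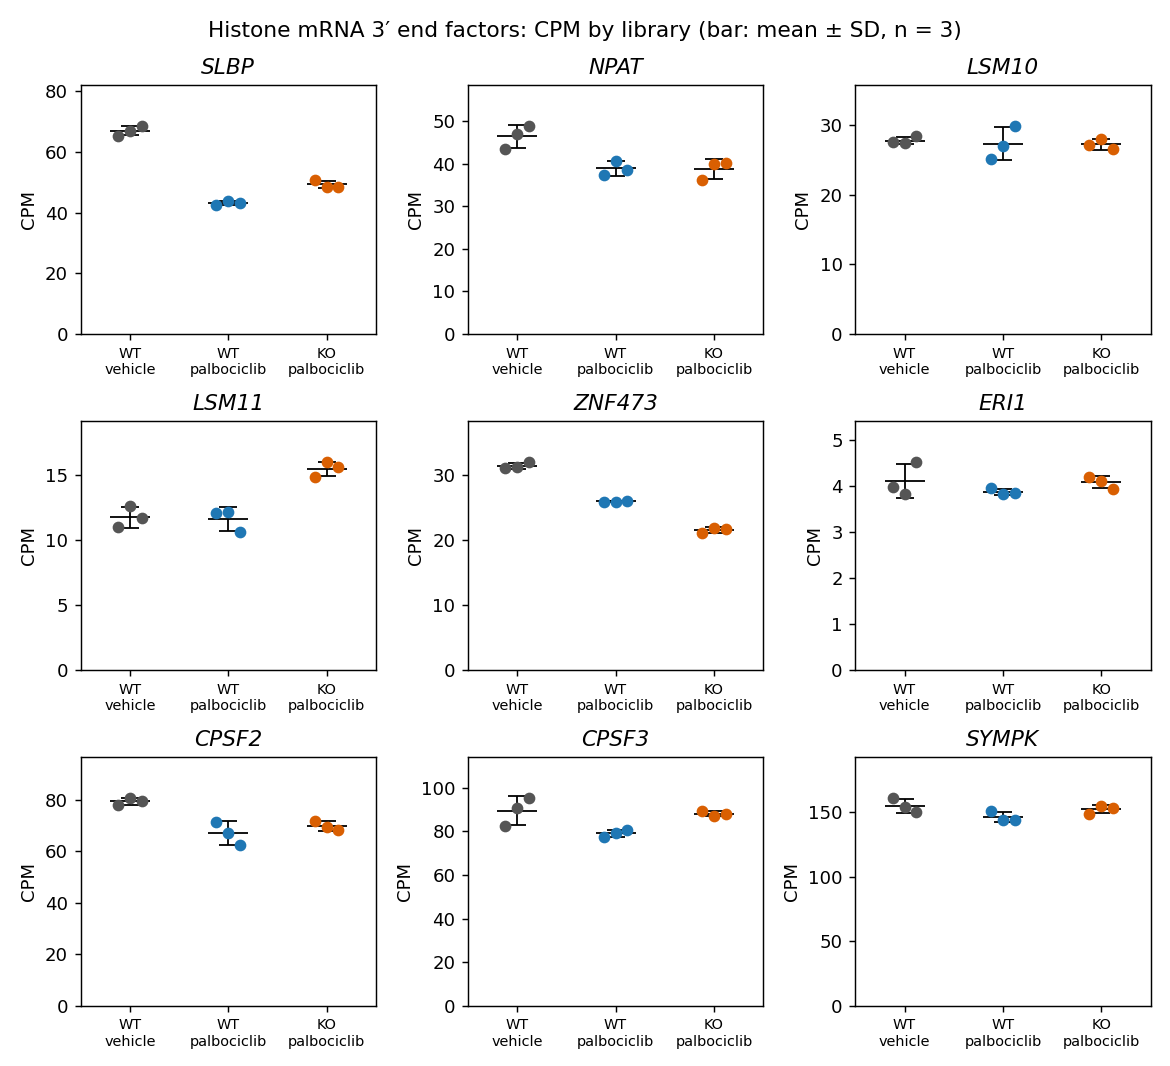
Each panel plots the CPM (y axis, from 0) of 1 factor in the 9 libraries, by group on the x axis, with the group mean and SD as bars (n = 3). SLBP drops from 65.4 to 68.4 CPM with vehicle to 42.6 to 44.0 with drug in WT cells, ZNF473 steps down from each group to the next, and LSM11 is higher in the knockout libraries (14.9 to 16 CPM) than in any WT library.

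CASP8AP2 (ENSG00000118412.13, chromosome 6, 89829894 to 89874436, plus strand) encodes FLASH, which joins the U7 particle to the cleavage factors. It was listed at 6, 5 and 5 counts with vehicle, 1, 3 and 1 with drug and 4, 0 and 3 in the knockout. A count of 3 corresponds to 0.071 to 0.088 CPM, so these values lie near that floor and no fold is given. Other genes that every cell uses are also listed at or near 0. LSM2 and NELFE were at 0 in all 9 libraries, CPSF1 and INTS3 at 0 or 1 and NELFCD at 2 to 7 counts. Whether reads of CASP8AP2 were assigned elsewhere was not tested.

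The second comparison asked how the factors differed between PERK knockout and WT cells when both were on the drug. SLBP and LSM11 were higher in the knockout and ZNF473 was lower. CPSF3 was called higher by a narrow margin, and NPAT, LSM10, ERI1, CPSF2 and SYMPK did not pass. In counts, 3 of 9 tested factors were called higher and 1 lower, with a median log2 fold change of 0.06. Of all tested genes 14.9% were called higher and 13.0% lower, with a median of 0.01.

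SLBP stood at 50.7, 48.6 and 48.6 CPM in the knockout, above all 3 WT palbociclib libraries and below all 3 vehicle libraries. The difference from WT cells on the drug was 0.19 ± 0.049 (95% interval 0.09 to 0.29, edgeR adjusted p = 0.0062). LSM11 stood at 14.9, 16 and 15.6 CPM, above all 6 WT libraries (10.6 to 12.6). Its difference was 0.41 ± 0.083 (edgeR adjusted p = 0.000755), or 133% of the WT level. LSM10, its ring partner, stood at 27.2, 28.0 and 26.5 CPM and overlapped the WT group (-0.01, 95% interval -0.14 to 0.13).

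ZNF473 stood at 21.1, 21.9 and 21.7 CPM in the knockout, below all 6 WT libraries (-0.27 ± 0.057, edgeR adjusted p = 0.00141). VRK3, which overlaps it at the start, had a difference of -0.13 ± 0.059 (edgeR adjusted p = 0.114). CPSF3 stood at 89.2, 87.0 and 87.8 CPM in the knockout, above the 3 WT palbociclib libraries (0.15 ± 0.053, edgeR adjusted p = 0.0348). That CPSF3 call was lost without any 1 of the 6 libraries compared (edgeR adjusted p from 0.0679 to 0.12), with other scalings (0.0566 with DESeq2's size factors in edgeR and 0.0991 with library totals), with no low-count filter (0.0771) and with DESeq2 (0.0725).

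NPAT stood at 36.1, 40.0 and 40.1 CPM in the knockout and overlapped WT cells on the drug (-0.01, 95% interval -0.13 to 0.12). CPSF2, at 71.9, 69.6 and 68.3 CPM, had a difference of 0.06 (95% interval -0.05 to 0.17). SYMPK, at 149, 155 and 153 CPM, also had a difference of 0.06 (-0.04 to 0.15), and ERI1, at 4.2, 4.1 and 3.94 CPM, one of 0.07 (-0.18 to 0.33). The partner of CPSF3, ITGB1BP1, stood at 86.7 ± 4.1 CPM in the knockout (0.00 ± 0.051 against WT cells on the drug), and that of NPAT, ATM, at 92.3 ± 5.3 (0.01 ± 0.058). These intervals bound the difference but do not show that the groups were alike.

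**Figure D2:**
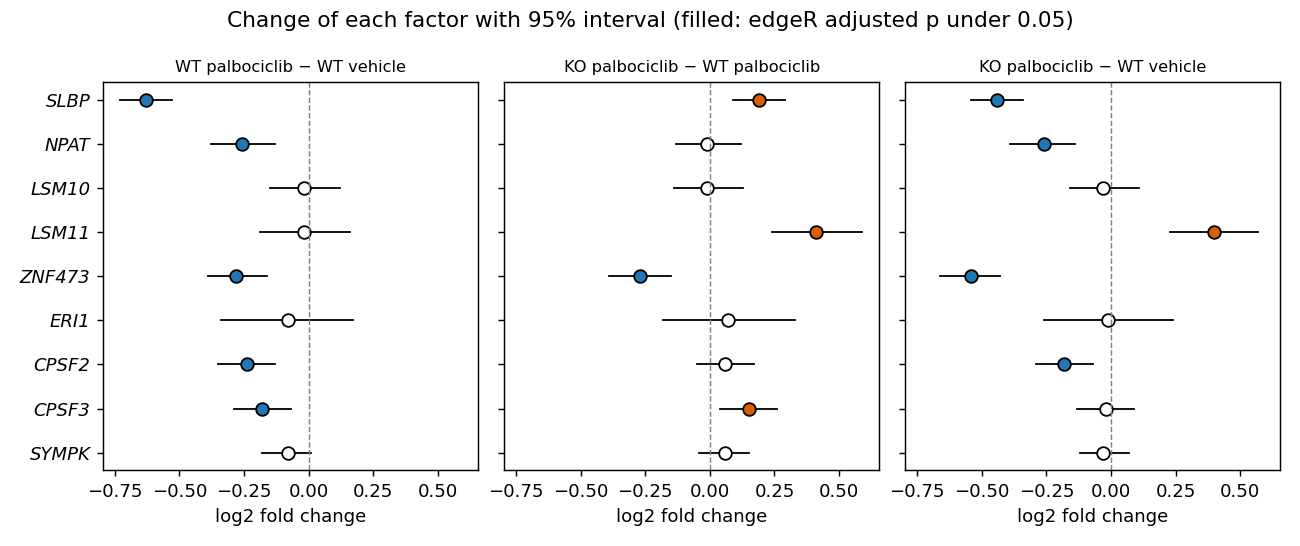
Each row is 1 factor and each panel 1 comparison, with the log2 fold change on the x axis and its 95% interval as a line. Filled points passed an edgeR adjusted p under 0.05 (blue lower, orange higher). Only SLBP and ZNF473 are filled in all 3 panels, SLBP changing sides between the first (-0.63) and the second (0.19) and ZNF473 lower in each.

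A cell line derivative can gain or lose chromosome segments, so each difference was set beside the median of the other tested genes within 5 Mb on each side. For SLBP that median was -0.04 (71 genes) and for ZNF473 -0.01 (295 genes), so they differed from that median by 0.23 and -0.26. SLBP lay above 84.5% of those genes and ZNF473 above 16.3%, so some neighbours were more extreme. For LSM11 the surroundings were themselves higher, at 0.11 (41 genes), which leaves 0.30 after subtraction, and LSM11 lay above 90.2% of them. ERI1 lies in a stretch of chromosome 8 whose other 25 tested genes had a median of -0.47, while ERI1 itself was at 0.07. The part of copy number in these values was not tested.

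**Figure D3:**
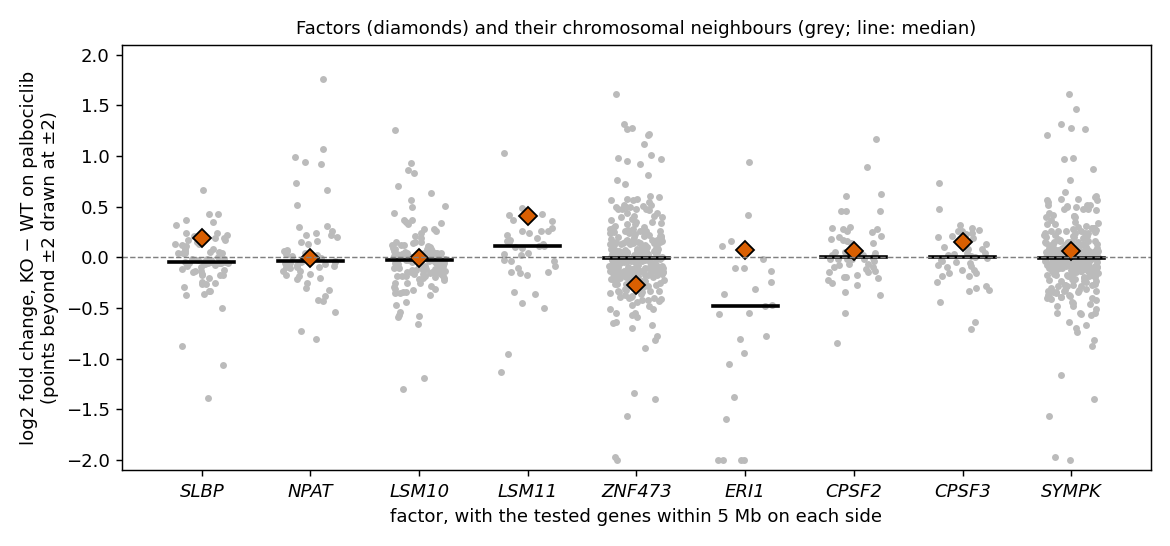
The y axis is the log2 fold change of knockout against WT cells, both on palbociclib. Diamonds are the 9 tested factors along the x axis, grey points the tested genes within 5 Mb on each side and lines their median. The line lies near 0 for most factors, at 0.11 for LSM11 and at -0.47 for ERI1.

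The third comparison set knockout cells on the drug against WT cells on vehicle, and it shares libraries with both others. SLBP was at 73.7% of the vehicle level (log2 fold change -0.44 ± 0.048, edgeR adjusted p = 2.26e-07) and ZNF473 at 68.6% (-0.54 ± 0.057, edgeR adjusted p = 1.17e-07). NPAT (-0.26 ± 0.06) and CPSF2 (-0.18 ± 0.052) were also lower, and LSM11 was higher (0.40 ± 0.082, edgeR adjusted p = 0.000397). CPSF3 had a difference of -0.02 with a 95% interval from -0.13 to 0.09. The intervals of LSM10 (-0.16 to 0.11), SYMPK (-0.12 to 0.07) and ERI1 (-0.26 to 0.24) also held 0. In counts 4 of 9 factors were lower and 1 higher, against 26.0% and 25.7% of all tested genes.

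Promoters were read from the RefSeq table (GRCh38.p14, gene strand, 250 bases before the start to 50 after it), which held 8 of the 10 genes whether or not they were called. ZNF473 and ERI1 had no entry. Motifs were searched on both strands: an E2F site as TTTGGCGC, TTTCGCGC, TTTGCCGC or TTTCCCGC, a CHR element, found in cell cycle genes, as TTTGAA, and a CCAAT box as CCAAT. These letters do not overlap one another as searched. Capitals mark the matches. SLBP is shown as the factor that fell most (chr4:1712270-1712569, minus strand), NPAT for the start it shares with ATM (chr11:108222589-108222888, minus strand), LSM11 for its rise in the knockout (chr5:157743462-157743761, plus strand) and CPSF3 as the tested factor with an E2F match (chr2:9423404-9423703, plus strand).
SLBP: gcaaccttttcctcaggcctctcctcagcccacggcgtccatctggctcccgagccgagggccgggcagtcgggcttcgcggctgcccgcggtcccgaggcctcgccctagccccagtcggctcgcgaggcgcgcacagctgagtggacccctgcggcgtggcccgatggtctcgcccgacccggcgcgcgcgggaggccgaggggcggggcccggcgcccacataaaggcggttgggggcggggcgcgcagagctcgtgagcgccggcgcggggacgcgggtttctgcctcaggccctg
NPAT: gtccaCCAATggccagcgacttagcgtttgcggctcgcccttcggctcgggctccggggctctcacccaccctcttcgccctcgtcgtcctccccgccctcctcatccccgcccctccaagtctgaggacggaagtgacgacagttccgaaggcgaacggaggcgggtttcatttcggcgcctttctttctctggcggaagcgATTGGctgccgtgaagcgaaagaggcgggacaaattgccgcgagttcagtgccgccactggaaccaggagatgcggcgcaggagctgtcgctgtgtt
LSM11: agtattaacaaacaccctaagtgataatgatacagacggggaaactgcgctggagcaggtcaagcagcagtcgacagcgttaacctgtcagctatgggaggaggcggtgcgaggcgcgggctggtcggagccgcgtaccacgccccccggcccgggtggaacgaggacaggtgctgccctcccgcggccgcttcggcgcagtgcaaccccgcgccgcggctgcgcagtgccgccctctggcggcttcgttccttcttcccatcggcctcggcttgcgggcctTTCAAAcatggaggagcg
CPSF3: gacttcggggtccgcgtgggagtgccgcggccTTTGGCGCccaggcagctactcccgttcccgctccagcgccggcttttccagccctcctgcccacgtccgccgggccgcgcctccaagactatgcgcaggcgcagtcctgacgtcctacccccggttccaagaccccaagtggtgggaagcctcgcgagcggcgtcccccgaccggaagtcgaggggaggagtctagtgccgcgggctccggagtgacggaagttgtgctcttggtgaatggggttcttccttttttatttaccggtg
An E2F match was found in 2 of the 8 promoters (CPSF3 and CASP8AP2), against 3.33% of 27305 promoters of that length in the table. A CHR match was found in 1 (LSM11), against 15.4%, and a CCAAT match in 4 (NPAT, LSM10, CPSF2 and CASP8AP2), against 35.7%. SLBP, which fell most with the drug, had no match to any of these letters. A match is a description of letters, and binding was not measured in these data.

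Genes that act beside the factors were then taken from lists made by their known roles. The lists were chosen with earlier results of these data known. The counts below are to be read against all tested genes: with the drug in WT cells 22.3% were lower and 21.3% higher (median -0.02), and in the knockout against WT cells on the drug 13.0% were lower and 14.9% higher (median 0.01). Of 18 Sm proteins and assembly factors of small nuclear ribonucleoproteins 13 fell and 0 rose (median -0.30). DESeq2, limma-voom and an unadjusted p under 0.05 also gave 0 higher (21.3% of all tested genes were), here and for the other lists with 0 higher in this comparison. SNRPB, a core Sm protein shared by U7 and the spliceosome, fell from 191 ± 2.8 to 124 ± 5.2 CPM (-0.62 ± 0.047). It was lower still in the knockout, at 84.7 ± 2.4 (-0.55 ± 0.048). SNRPB lies on chromosome 20 (2461634 to 2470853). Its surroundings were not compared, and the part of copy number in the knockout value was not tested. In the knockout 2 of the 18 were lower and 1 was higher, SNRPD2 (234 ± 7.4 against 208 ± 13 CPM, 0.17 ± 0.053), a count that ran from 0 to 3 over alternatives. SNRPD1, a spliceosomal Sm protein without a place in the U7 ring, fell by 0.58 on the log2 scale with the drug, while LSM10 was at -0.02. SNRPD2, which also has no place in that ring, stood at 226 ± 11 CPM with vehicle and 208 ± 13 with drug in WT cells, and its libraries overlapped. The pair that LSM10 and LSM11 replace thus did not move alike.

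Of 16 tested factors of ordinary cleavage and polyadenylation 12 fell and 0 rose with the drug (median -0.25; 22.3% and 21.3% of all tested genes), with NUDT21 at -0.50 ± 0.049. In the knockout, where 13.0% of all tested genes were lower, 1 of the 16, WDR33, a poly(A) signal reader, was lower (-0.26 ± 0.048), and 2 were with library totals only, with the replicate block or without WT palbociclib library 3. None of the 16 was higher (0 with edgeR, DESeq2, limma-voom and an unadjusted p under 0.05). Of 13 tested subunits of Integrator, whose subunits INTS9 and INTS11 are relatives of CPSF2 and CPSF3, 7 fell and 0 rose with the drug (median -0.17; 22.3% and 21.3% of all tested genes). In the knockout 3 were higher and 3 lower (14.9% and 13.0% of all tested genes), among them INTS9 at 16.7 ± 1.0 against 26.9 ± 1.2 CPM (-0.68 ± 0.068). INTS9 and INTS10 (47.3 ± 2.2 against 67.9 ± 1.4 CPM) lie on chromosome 8, from 28767661 and 19817140, as ERI1 does. INTS8, further along that chromosome from 94813311, stood at 45.3 ± 0.5 against 45 ± 2.4 CPM. Genes around these subunits were not compared, and the part of copy number was not tested. INTS7 had the largest drop with the drug (-0.36 ± 0.051) and INTS1 the largest rise in the knockout (0.28 ± 0.047).

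Of 8 genes of the histone locus body and of histone gene transcription 4 fell and 1 rose with the drug (median -0.20; 22.3% and 21.3% of all tested genes). CCNE2, a cyclin E that with CDK2 activates NPAT, fell from 14.5 ± 1.3 to 8.48 ± 1.0 CPM (-0.78 ± 0.099). CCNE1 was the one that rose (0.18 ± 0.057), a call lost without vehicle library 1 or WT palbociclib library 2. In the knockout 3 were higher, a count that dropped to 1 without WT palbociclib library 3 or knockout library 2, and 1 was lower, against 14.9% and 13.0% of all tested genes. COIL, a scaffold of Cajal bodies, was higher (40.6 ± 2.2 against 32.7 ± 0.63 CPM, 0.31 ± 0.055). POU2F1, an activator of histone H2B genes, was lower (28.8 ± 1.4 against 41.0 ± 0.62, -0.51 ± 0.057).

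Of 6 tested cap binding and elongation factors 4 fell and 1 rose with the drug (median -0.20; 22.3% and 21.3% of all tested genes). SRRT, which links the cap to histone processing, fell by 0.46 ± 0.055. CDK9 rose by 0.15 ± 0.052, a call lost without vehicle library 2 or 3 or WT palbociclib library 1 or 2. In the knockout 0 of the 6 were called by edgeR, DESeq2 or limma-voom in either direction, 1 (NCBP2) had an unadjusted p under 0.05, and 1 was higher with a replicate block for the set.

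Of 13 tested genes for export, translation and decay of histone mRNA 10 fell and 0 rose with the drug (median -0.20; 22.3% and 21.3% of all tested genes), or 6 fell without vehicle library 1. LSM6, of the ring that binds mRNA in decay, fell by 0.58 ± 0.074. In the knockout 6 were higher and 1 lower (median 0.13), but only 1 to 3 were higher with the other scalings, with no filter, with DESeq2 or without WT palbociclib library 1, 2 or 3 or knockout library 1 or 2. Of all tested genes 14.9% were higher, which is close to those lower counts. MIF4GD, which bridges SLBP to translation, moved most (24.1 ± 0.86 against 17.9 ± 0.49 CPM, 0.43 ± 0.074), and UPF1, a helicase of mRNA decay, was the lower one (-0.18 ± 0.053), a call lost without WT palbociclib library 1 or knockout library 1 or 3.

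SLBP protein is removed at the end of S phase, and 6 of 7 genes for its turnover fell with the drug while 1 rose (median -0.50; 22.3% and 21.3% of all tested genes). CCNA2 fell by 0.86 ± 0.086, CCNF, the cyclin of a ubiquitin ligase that targets SLBP, by 0.64 ± 0.10, and FEM1A, a substrate receptor, by 0.93 ± 0.14. FEM1C rose (0.26 ± 0.082), a call lost without vehicle library 2 or 3 or WT palbociclib library 1 or 2. In the knockout, where 14.9% of all tested genes were higher and 13.0% lower, 0 of 7 were called by edgeR, DESeq2 or limma-voom (1 had an unadjusted p under 0.05, FEM1B), against 1 lower with library totals or the replicate block and 2 lower without WT palbociclib library 3. SLBP protein was not measured here.

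**Figure D4:**
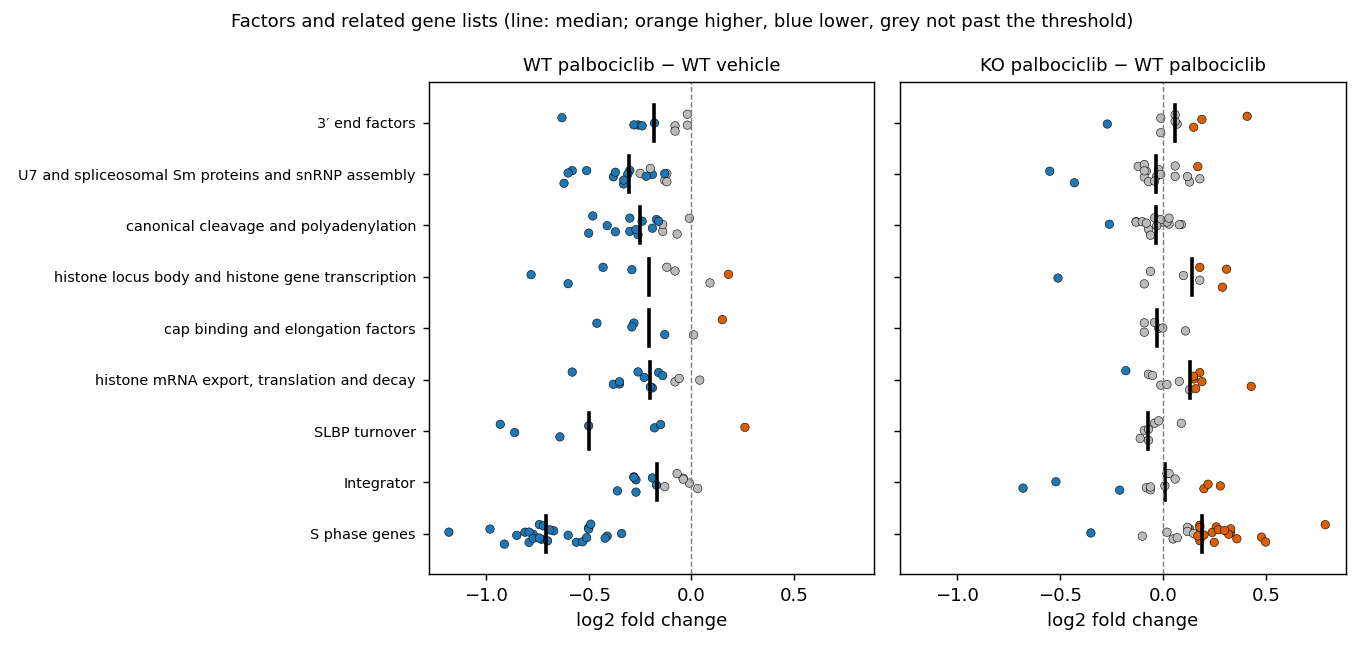
Each point is 1 tested gene, grouped by list on the y axis, with its log2 fold change on the x axis for palbociclib in WT cells (left) and for knockout against WT cells on palbociclib (right). Lines are medians, which run from -0.71 (S phase genes) to -0.17 (Integrator) on the left and from -0.07 to 0.19 on the right.

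S phase genes moved in the same samples. All 26 on the list were lower with the drug in WT cells (median -0.71; 22.3% of all tested genes). In the knockout 18 were higher and 1, PCNA, lower (median 0.19; 14.9% and 13.0% of all tested genes), and 9 to 11 were higher without WT palbociclib library 3 or knockout library 1 or 2. PCNA, like SNRPB, lies on chromosome 20 (5114953 to 5126626). Its surroundings were not compared either, and the part of copy number in its drop was not tested. In sum the 26 stood at 4350 to 4470 CPM with vehicle, 2580 to 2920 with drug in WT cells and 3040 to 3440 in the knockout. Against vehicle, 23 were lower in the knockout and 1, MCM5, higher (26.0% and 25.7% of all tested genes). MCM5 stood at 250 ± 15 CPM with vehicle, 170 ± 6.6 with drug and 293 ± 16 in the knockout. SLBP has the same order of groups as the sum, and the part of S phase cells in its change was not tested.

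The genes whose profile over the 9 libraries was nearest to SLBP were found by the root mean square difference of log2 CPM, each gene centred on its mean, among 10905 genes with at least 5 CPM. They were ARL6IP6 (0.021), DONSON, a replication fork protein (0.035), and HMGN2, a nucleosome binding protein (0.036). The median over genes was 0.28. It gives the scale only, since the smallest distances lie below it by the way they were picked. ARL6IP6 went from 40.8 ± 1.6 CPM with vehicle to 26.3 ± 0.17 with drug and 30.5 ± 0.52 in the knockout. Nearest to NPAT were NIPBL-DT (0.032), PGAP1 (0.036) and CGGBP1 (0.039), against a median of 0.19. CASP8AP2 was too low for this measure.

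The mRNAs that the factors process could be seen only in part, since capture on poly-T favours tailed RNA, and histone genes have near-identical copies. Of 68 replication-dependent histone genes 27 were tested, of which 7 were lower and 3 higher with the drug (median -0.11; 3 lower without WT palbociclib library 3), against 22.3% and 21.3% of all tested genes, so the share lower was near that of all genes. There were 13 lower and 1 higher in the knockout against WT cells on the drug (median -0.63; 0 higher without WT palbociclib library 2 or 3 or knockout library 1), against 13.0% and 14.9% of all tested genes. Summed over the 68, they stood at 534 to 599 CPM with vehicle, 414 to 503 with drug and 188 to 193 in the knockout. The sum was set by a few genes: H1-2 alone stood at 202 ± 10 CPM with vehicle, 116 ± 10 with drug and 34.8 ± 2.1 in the knockout, and H2BC12 at 165 ± 25, 157 ± 19 and 57.9 ± 1.2. With the drug in WT cells H2BC21 (0.35 ± 0.082) and H2BC5 (0.39 ± 0.092) rose, as did H2BC15, from 3.41 ± 0.66 to 4.62 ± 0.57 CPM. H2AC20 had the largest called fall among those at a mean of at least 1 CPM, from 2.95 ± 0.3 to 1.63 ± 0.11 CPM. H3C6 stood at 1.65, 1.89 and 1.55 CPM in WT palbociclib libraries and at 0.199, 0.231 and 0.142 in the knockout (-3.17 ± 0.27, edgeR adjusted p = 2.99e-08). H1-2, H2BC12 and H3C6 lie near one another on chromosome 6, from 26055787, 27146418 and 26224199, so their drops in the knockout may not be independent. Other genes around them were not compared, and the part of copy number in the knockout values of the histone genes was not tested. H2AX, the variant gene with a hairpin, fell from 259 ± 18 to 133 ± 11 CPM with the drug (-0.96 ± 0.075) and stood at 131 ± 12 in the knockout. The histone sums and SLBP thus differed in direction between WT and knockout cells on the drug, with SLBP higher and the histone RNA counted in these libraries lower. Whether the tailed share of histone mRNA changed could not be measured in these data.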

How the data were processed

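Total RNA was purified on columns, its polyadenylated part was taken with poly-T beads, and random hexamers primed the cDNA, per the labels' protocols. The authors deposited raw counts per gene, 1 column for each library. Per the submitters' processing notes, CASAVA, FastQC, Trim Galore, STAR 2.7.9a, DESeq2 and hg38 were used, with no stated order. For the program that counted reads, the strand setting and the annotation, nothing is given in the sources used here.

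Of 70116 gene identifiers 62700 had a symbol and 58261 a position in GENCODE 29 (GRCh38), matched without version. Counts were fitted in edgeR 4.0.16 (R 4.3.3) with TMM factors (0.977 to 1.01), the default low-count filter and robust quasi-likelihood tests, in 1 model of 9 libraries and 3 groups with 6 residual degrees of freedom. Alternatives were limma-voom (limma 3.58.1), DESeq2 1.42.0, other scalings, no filter, pairs of groups alone, the set as a block and each library left out. Replicates of a group differed by more than sampling noise in every pair (chi-square divided by its degrees of freedom, 3.45 to 10.7).

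The set numbers of the labels were taken to pair the libraries: deviations from group means over 12932 genes correlated at 0.176 to 0.541 for the 9 pairs with the same number and at -0.401 to 0.071 for other pairs. Deviations within a group cancel out, so positive values for pairs of the same number push the others down. The main fit left the set out, so its standard errors and p-values do not use this pairing. The set as a block was among the alternatives.

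The factors and the lists were chosen with earlier results of these data known. Beside the 10 factors, genes were named by a rule. It gave, per list and comparison, the called genes with the largest rise and fall at a mean of at least 1 CPM. It also gave the partners with a start within 1 kb on the other strand, and the 3 genes nearest to SLBP and NPAT. Not every gene that this rule gave is shown with its values. Among those left out were E2F8, H2AJ, H2AZ1 and MACROH2A2. Genes with counts near 0 in all libraries, and SNRPD1, CCNA2, CCNF, NCBP2, FEM1B, INTS8, INTS10, INTS11, H4C8, H2BC4, H1-2, H2BC12, H2BC21, H2BC5 and CLDN4, were named after their values were seen.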

Additional observations from a re-analysis of the deposited data

How the results depend on the processing

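The count of factors called lower with palbociclib in WT cells was 5 under every alternative with all libraries and 4 to 5 with 1 library left out. The count called higher in that comparison was 0 throughout. Between knockout and WT cells on the drug, 3 factors were higher in the main analysis, 2 with DESeq2's size factors in edgeR, 2 with library totals only, 2 with no low-count filter and 2 with DESeq2, and 2 to 3 with 1 library left out, with 1 lower throughout. The factor that dropped out was CPSF3 each time. Between knockout cells on the drug and WT vehicle cells, 1 higher and 4 lower were found under every alternative. The set number as a replicate block gave the same counts (0 and 5, 3 and 1, 1 and 4, higher and lower in the order of the comparisons), and changed no call of a factor. Over single factors and alternatives, 430 of 450 values kept their call (or, for the subtraction of the neighbourhood median, moved by less than the spread between replicates), 11 (all of CPSF3) missed it, 9 moved by more than that spread under the subtraction, and 0 called values changed direction. Apart from that subtraction, log2 fold changes over the alternatives ran from -0.65 to -0.60 for SLBP with the drug, and in the knockout against WT cells on the drug from 0.16 to 0.20 for SLBP, from 0.34 to 0.45 for LSM11 and from -0.30 to -0.25 for ZNF473. None of the 9 factors passed the test for a difference between sets (edgeR adjusted p 0.159 to 0.991), against 8.07% of all tested genes, a share at which 0 of 9 says little.

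Depth limited ERI1, at 134 to 169 counts per library, and CASP8AP2, at 0 to 6.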
